A study of Saccharomyces cerevisiae with 8 samples.

Results

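The small (40S) subunit of the cytosolic ribosome of *Saccharomyces cerevisiae* carries proteins that are encoded by the *RPS* genes. A gene was counted as a member when its systematic ORF name has a standard symbol made of RPS, a number and, where the gene has a paralog, the letter A or B. The gene table lists 56 such symbols in 32 protein families, of which 24 families have an A and a B gene and 8 have 1 gene. The value table holds 54 of them among 6212 ORFs, and *RPS19A* and *RPS30A* were not analysed here. A value on at least 1 array was present for 53 members, and *RPS16A* had none. There are 21 members that belong to the head of the subunit and 33 that belong to its body.

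The samples were *ptc1 ptc6* cells (*ptc1::NAT ptc6::kanMX4*) and *ptc6* cells (*ptc6::kanMX4*), each hybridised together with wild type (wt) cells, and all strains had the BY4741 background. Cells grew untreated in rich medium (YPD) at 28 °C, total RNA was taken in logarithmic growth, and the labels name 1 strain per genotype. Each mutant has 2 biological replicates and each replicate has 2 arrays with the dyes Cy3 and Cy5 exchanged, so that 8 arrays give n = 2 for each mutant. Experiments 1 and 2 of *ptc1 ptc6* are replicate 1 and experiments 3 and 4 are replicate 2, whereas in *ptc6* experiments 1 and 2 are replicate 1 and experiments 5 and 6 are replicate 2. All values are log2 ratios of mutant over wt, so that negative values stand for less transcript in the mutant. No *ptc1* single mutant was analysed here, so the contribution of the *ptc1* deletion alone cannot be told apart from that of both deletions. A ratio on these arrays is relative to the other transcripts of the cell, and less of a transcript per cell cannot be told apart from fewer cells that make it.

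In growing yeast the ribosomal protein genes are among the most strongly transcribed genes, and their mRNAs rise and fall together with the rate of growth. Their promoters are bound by Rap1, Fhl1 and the co-activator Ifh1, and the kinases TORC1 and protein kinase A keep them active while nutrients are plentiful. Both deleted genes encode type 2C phosphatases, and the comparisons ask how transcript levels in rich medium differ from wt when *PTC6* is missing, by itself or together with *PTC1*.

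The deleted genes and the completeness of the data were examined first. *PTC1* had log2 ratios of -1.95, -3.43, -2.32 and -2.545 on the *ptc1 ptc6* arrays, against 0.41, -0.13 and 0.20 on the 3 *ptc6* arrays with a value. *PTC6* had -3.16 and -4.73 on 2 *ptc1 ptc6* arrays and -2.27, -2.66 and -2.18 on 3 *ptc6* arrays. Each deleted gene was thus low in the strains that lack it. Between 4050 and 4710 ORFs had a value on a *ptc1 ptc6* array, and between 4308 and 5537 on a *ptc6* array. Of the members, 47 had a value on all 8 arrays.

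*RPS* transcripts were lower in *ptc1 ptc6* cells than in wt cells. Of the 49 members that could be tested, 40 fell and 0 rose (limma, Benjamini-Hochberg adjusted p between 0.0241 and 0.0496 among the 40), and the fitted ratio was below 0 for all 49. Over all genes tested, 8.49% fell, which is 390 of 4596, and 2639 had a fitted ratio below 0. The median ratio of the members was -0.71, against -0.05 over all genes, and the single fitted values lay between -1.12 and -0.35 with a median SE of 0.14. Median ratios on the 4 arrays were -0.81, -0.54, -0.75 and -0.71. Every member with a value was below 0 on experiments 1, 2 and 4, and 45 of 50 were on experiment 3. Of all ORFs, 55.3%, 58.8%, 50.5% and 59.0% were below 0 on experiments 1 to 4. Of the 47 members with 4 values, 42 were below 0 on 4 of 4 arrays, against 29.9% of all ORFs. Without replicate 2 of *ptc1 ptc6* 6 members were called, with a median of -0.66, and without replicate 1 31 were called, with a median of -0.76. In these fits the lone replicate is assumed to vary like those of *ptc6*.

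**Figure D1:**
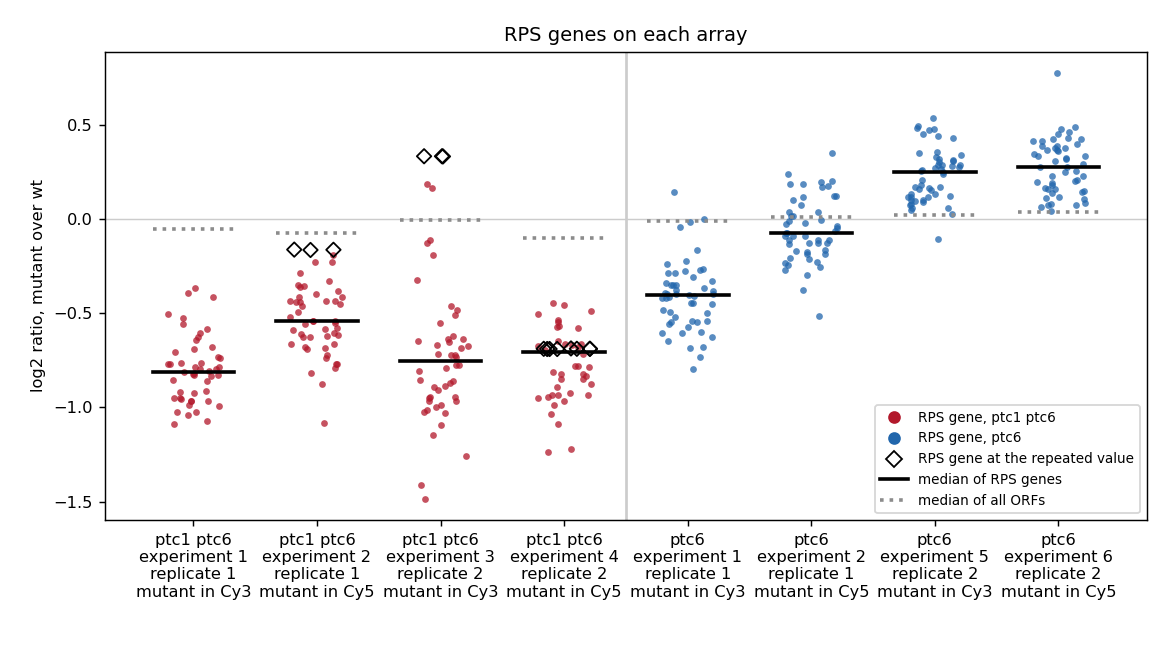
Log2 ratios of mutant over wt (vertical axis) of each RPS gene on the 4 ptc1 ptc6 arrays and the 4 ptc6 arrays (horizontal axis), with the median of the RPS genes as a black line and that of all ORFs as a dotted line. The medians of the RPS genes lie between -0.81 and -0.54 on the ptc1 ptc6 arrays, and below 0 on ptc6 experiments 1 and 2 but above 0 on experiments 5 and 6; diamonds mark RPS genes at a value that abundant glycolytic transcripts share.

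In *ptc6* cells no member passed the test in either direction (limma, adjusted p between 0.602 and 0.999), and over all genes 0.0% fell and none rose. The deleted gene *PTC6* did not pass either, at a fitted ratio of -2.34 (limma, adjusted p = 0.407). The test thus missed a loss that is known from the strain. For *PTC6* the replicate means were close in *ptc6*, at -2.27 and -2.42. They lay further apart in *ptc1 ptc6*, at -3.16 and -4.73, and the spread used by the test is shared by both mutants. At an unadjusted p under 0.05 there was 1 of 51 members, *RPS7B*, against 386 of all 4824 genes tested. The median ratio was 0.01, with 22 members below 0 and 29 above 0. This median near 0 was the mean of replicates that lay on opposite sides of it. In replicate 1, 50 of 52 members were below 0, with a median of -0.25, and in replicate 2 all 51 members were above 0, with a median of 0.24. Among the members, 49 of the 51 measured in both replicates were below 0 in the first and above 0 in the second, whereas 28.9% of all ORFs showed that pattern. The genes of the large subunit (*RPL*) showed it in 64 of 69 cases, with replicate medians of -0.17 and 0.25. By array, the medians of the *RPS* genes were -0.405 and -0.08 on experiments 1 and 2, and 0.25 and 0.28 on experiments 5 and 6. No member was below 0 on 4 of 4 *ptc6* arrays, against 7.14% of all ORFs. *RPS7B* was the 1 member above 0 on all of them, and the share of all ORFs above 0 on 4 of 4 was not counted.

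**Figure D2:**
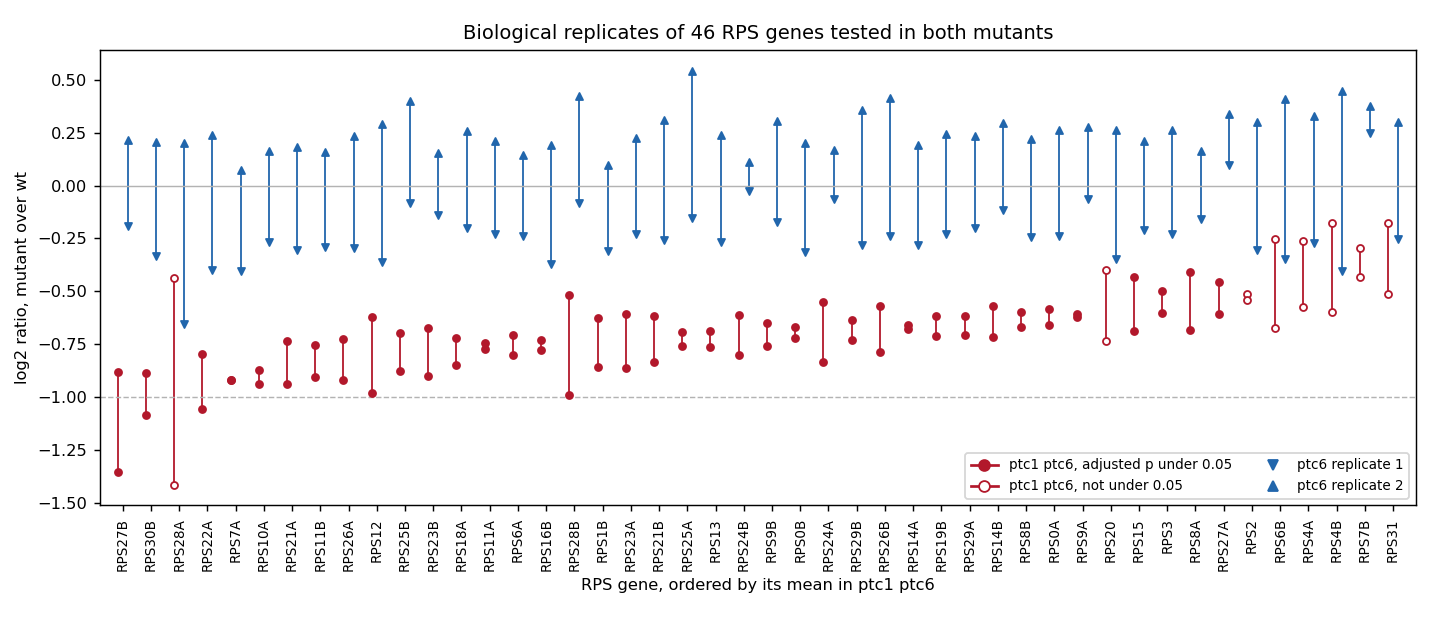
Log2 ratios of mutant over wt (vertical axis) in each biological replicate, as the mean of its dye-swapped arrays, for 46 RPS genes tested in both mutants, ordered by their mean in ptc1 ptc6 (horizontal axis). Lines join the 2 replicates of a mutant, the dashed line marks a 2-fold decrease, and 38 genes have filled circles for an adjusted p under 0.05 in ptc1 ptc6.

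The difference between the mutants had a median of -0.73 over the members, against -0.09 over all genes. Every one of the 49 members was lower in *ptc1 ptc6* than in *ptc6*, as were 2662 of all 4361 genes tested. No member passed the adjusted threshold (limma, lowest adjusted p = 0.0966). At an unadjusted limma p under 0.05 there were 41 of 49 members, and 1060 of all 4361 genes. Over all genes 0.0459% were called lower in this difference. Other fits gave other counts. With all 8 arrays fitted and the replicate as a random block, 39 members were called, but the correlation of arrays within a replicate was estimated at -0.0855, so that this fit treats dye-swapped arrays nearly as separate replicates. With only genes that have 4 of 4 values in each mutant, which also changes the genes tested, 27 were called. Without *ptc6* replicate 1 the median difference was -0.94, and without *ptc6* replicate 2 it was -0.505. In 30 of the 47 members with all 8 values, every *ptc1 ptc6* array lay below every *ptc6* array, against 16.9% of all ORFs. Each mutant has its own set of hybridisations, and a difference between the sets cannot be told apart from the difference between the mutants.

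By the 2-fold rule of the study's methods, a mean log2 ratio of at most -1 over at least 2 of 4 arrays, 2 members were lower in *ptc1 ptc6*, *RPS27B* among them, and 0.294% of all ORFs were. In *ptc6* 0 members were, against 0.0549% of all ORFs. *RPS27B*, which encodes a zinc-finger protein of the subunit body, had -0.95, -0.82, -1.48 and -1.22 on the *ptc1 ptc6* arrays, and -0.34, -0.04, 0.27 and 0.16 on the *ptc6* arrays. All *ptc1 ptc6* values of *RPS27B* were below all of its *ptc6* values. Its fitted ratio in *ptc1 ptc6* was -1.12 ± 0.16 (SE, n = 2, limma adjusted p = 0.0270), or 0.461 of the wt level. Here and below, each SE is moderated by limma over both mutants and all genes, and is not the spread of the 2 replicates alone. Neither of the 2 members passed 2-fold in both replicates, and *RPS27B* had replicate means of -0.88 and -1.35.

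The members just above the 2-fold limit were *RPS30B*, *RPS28A*, *RPS22A* and *RPS7A*. *RPS30B* encodes a small basic protein that in mammals is made as a fusion with a ubiquitin-like protein. It had -1.08, -0.95 and -0.825 on *ptc1 ptc6* experiments 2 to 4 and no value on experiment 1, and -0.42, -0.25, 0.12 and 0.29 on the *ptc6* arrays. Its ratio fell to -0.985 ± 0.15 in *ptc1 ptc6* (SE, n = 2, limma adjusted p = 0.0270). *RPS22A*, for a core protein of the body, had -0.96, -0.63, -1.26 and -0.85 in *ptc1 ptc6*, and -0.685, -0.11, 0.09 and 0.39 in *ptc6*. Here the ranges overlapped, because the lowest *ptc6* array lay below the highest *ptc1 ptc6* array, and the fitted ratio was -0.92 ± 0.17 (SE, n = 2, limma adjusted p = 0.0272). *RPS28A* had only 2 values in *ptc1 ptc6*, which were -0.44 on experiment 2 and -1.41 on experiment 3. These values lay far apart, and the gene did not pass the test (-0.93 ± 0.28, SE, n = 2, limma adjusted p = 0.0712).

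Among the members at the other end of the range were *RPS31*, *RPS7B*, *RPS4B*, *RPS4A* and *RPS6B*, and none of them passed the test in *ptc1 ptc6*. There were 5 members above 0 on experiment 3, *RPS31*, *RPS4B*, *RPS4A* and *RPS6B* among them. *RPS31*, whose product is made as a fusion with ubiquitin, had -0.86, -0.165, 0.33 and -0.69 on the *ptc1 ptc6* arrays. *RPS4B*, for a protein of the body, had -0.835, -0.36, 0.33 and -0.69. These genes had equal values, to the digits given, on experiments 3 and 4.

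On those arrays the values were also shared with unrelated genes. The 6 abundant glycolytic transcripts *TDH1*, *TDH2*, *TDH3*, *ENO1*, *ENO2* and *PDC1* had the same log2 ratio within 0.003 on 6 of the 8 arrays, and that ratio was -0.209, -0.163, 0.332 and -0.690 on *ptc1 ptc6* experiments 1 to 4. There were 3 members at that shared ratio on experiment 2, among them *RPS4A* and *RPS31*, and 3 on experiment 3, among them *RPS4B* and *RPS31*. On experiment 4 there were 8, among them *RPS4A*, *RPS4B*, *RPS6B*, *RPS8A*, *RPS8B*, *RPS20* and *RPS31*. They make 14 of the 197 member values of *ptc1 ptc6*, in 8 genes, and no member value was at the shared ratio on a *ptc6* array. There were 33, 57, 37 and 37 ORFs within 0.003 of the shared ratio on experiments 1 to 4, against medians of 27, 37, 21 and 10 in neighbouring windows of the same width. These counts include the 6 glycolytic genes, which were chosen after their values were seen. On experiment 1 the excess was no larger than these 6 genes, and it was largest on experiment 4. The intensities of the single channels were not used here, so the origin of the repeated ratio was not tested.

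**Figure D3:**
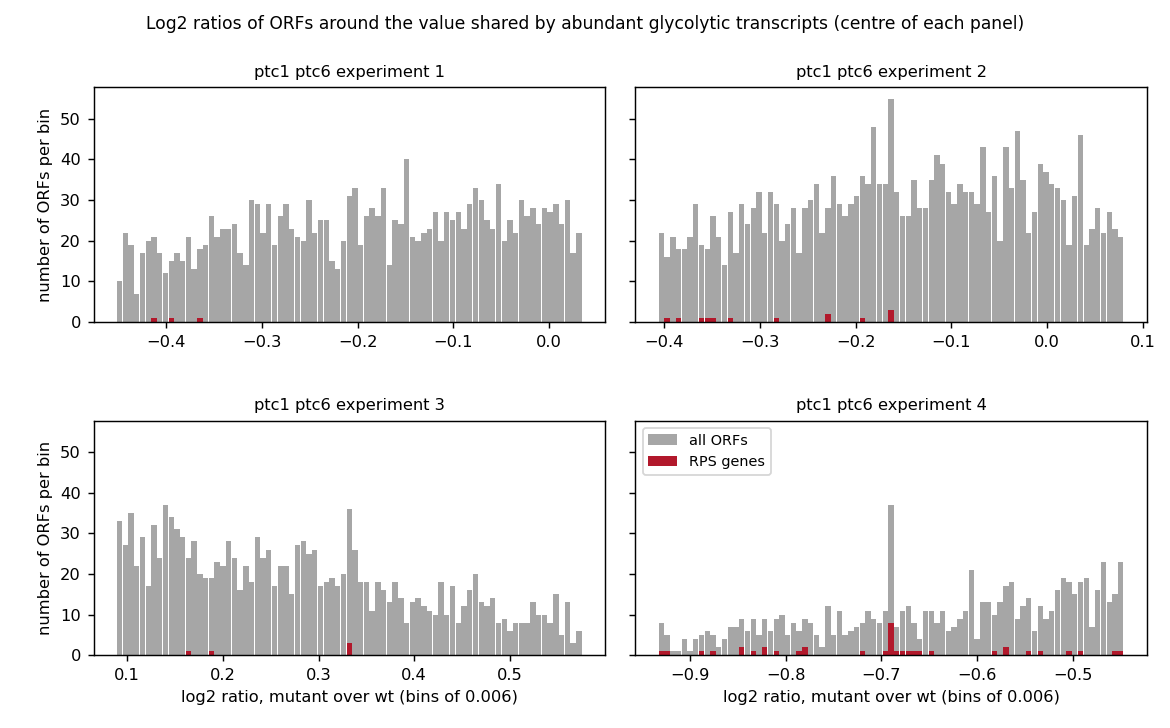
Number of ORFs per bin of 0.006 (vertical axis) along the log2 ratio of mutant over wt (horizontal axis) on each ptc1 ptc6 array, with the ratio shared by TDH3 and other glycolytic transcripts in the centre of each panel and RPS genes in red. The central bin holds 8 RPS genes on experiment 4, 3 on experiments 2 and 3, and 0 on experiment 1.

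Most tested members that did not pass were among these 8 genes. Of the 9 tested members that did not pass, 6 have such values, and 2 of the 8 fell, *RPS8A* and *RPS8B*. Among the 41 tested members without a repeated value, 38 fell, with a median of -0.73, and the 8 with one had a median of -0.44. The SD of the members on experiment 3 was 0.42 with all of them and 0.255 without these 8 genes. With the repeated values set to missing, 38 of 46 members fell and the median was -0.72. The genes with such values that could still be tested did not become lower by this. *RPS6B* had -0.24 without its repeated value, against -0.46 with it, *RPS20* had -0.42 against -0.57, *RPS8B* -0.59 against -0.63, and *RPS4A* -0.41 against -0.42. *RPS8A* had -0.41 against -0.55, and its call was lost (limma, adjusted p = 0.137 against 0.0428). *RPS31* and *RPS4B* were among those that could then no longer be tested in *ptc1 ptc6*. On experiment 1, where no member was at the shared ratio, *RPS4A* had -0.99, *RPS31* -0.86, *RPS4B* -0.835 and *RPS6B* -0.77, which lie near or below the median of -0.81 on that array. Some values of these genes that were not repeated lay above the medians of other arrays. On experiment 3, where the median was -0.75, *RPS4A* had 0.16 and *RPS6B* 0.19, and on experiment 2, where it was -0.54, *RPS4B* had -0.36. *RPS6B* with -0.58 on experiment 2 was below that median.

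*RPS7B* had no repeated value, and its ratio in *ptc1 ptc6* was the highest among the 41 tested members without one. It encodes 1 of the closely related Rps7 proteins of the body. *RPS7B* had -0.36, -0.23, -0.33 and -0.54 on the *ptc1 ptc6* arrays, and 0.14, 0.35, 0.26 and 0.49 on the *ptc6* arrays. It was the 1 member with every *ptc1 ptc6* array below 0 and every *ptc6* array above 0. The share of all ORFs with this pattern was not counted, so it is not known whether the pattern is rare. The fitted ratios were -0.36 ± 0.11 in *ptc1 ptc6* (limma, adjusted p = 0.0680) and 0.31 ± 0.11 in *ptc6* (adjusted p = 0.602), and the difference was -0.68 ± 0.15 (adjusted p = 0.0966; SE, n = 2 each).

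The highest fitted ratios in *ptc6* after *RPS7B* were those of *RPS27A*, *RPS25A*, *RPS28B*, *RPS25B* and *RPS9A*, at 0.22, 0.19, 0.17, 0.16 and 0.11. None passed the test. *RPS27A* had -0.04, 0.24, 0.255 and 0.42 on the *ptc6* arrays, so that 3 of 4 were above 0. *RPS25A*, whose product is needed for initiation at some viral internal ribosome entry sites, had -0.50, 0.19, 0.31 and 0.77, with the spread covering both signs. The lowest fitted ratios in *ptc6* were those of *RPS28A*, *RPS7A*, *RPS1B*, *RPS18B*, *RPS16B* and *RPS22A*, between -0.23 and -0.08, and each of these genes was below 0 in replicate 1 and above 0 in replicate 2.

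In the difference between the mutants, the 6 lowest members included *RPS27B* (-1.13 ± 0.22), *RPS25B* (-0.95 ± 0.20), *RPS28B* (-0.92 ± 0.24), *RPS30B* (-0.92 ± 0.21) and *RPS25A* (-0.92 ± 0.24; SE, n = 2 each). The 6 highest included *RPS31* at -0.37, *RPS4B* at -0.41, *RPS4A* at -0.45, *RPS6B* at -0.49 and *RPS20* at -0.52, and each of the 6 highest holds repeated values in *ptc1 ptc6*.

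The 8 single-copy genes encode proteins of the head and of the body, and 4 of the 8 fell in *ptc1 ptc6*. *RPS12*, for a protein of the beak of the head, had -0.58, -0.66, -0.72 and -1.24 on the *ptc1 ptc6* arrays, and -0.35, -0.38, 0.16 and 0.43 on the *ptc6* arrays. The lowest value came from experiment 4, the mutants did not overlap, and the fitted ratio was -0.80 ± 0.18 (SE, n = 2, limma adjusted p = 0.0379). *RPS13*, for a protein of the body, had -0.96, -0.415, -1.03 and -0.49 in *ptc1 ptc6*, and -0.55, 0.01, 0.09 and 0.39 in *ptc6*. Both Cy3 arrays of *ptc1 ptc6* were lower than both Cy5 arrays, and the fitted ratio was -0.72 ± 0.14 (SE, n = 2, limma adjusted p = 0.0316).

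*RPS15*, for a protein of the head that takes part in nuclear export of the subunit, had -0.99, -0.385, -0.19 and -0.67 in *ptc1 ptc6*, and -0.62, 0.20, 0.12 and 0.31 in *ptc6*. *RPS3*, for a protein at the mRNA entry channel, had -0.56, -0.44, -0.48 and -0.72 in *ptc1 ptc6*, and -0.36, -0.09, 0.30 and 0.225 in *ptc6*. *RPS15* fell to -0.56 ± 0.14 (limma, adjusted p = 0.0468) and *RPS3* to -0.55 ± 0.14 (limma, adjusted p = 0.0496; SE, n = 2 each), both close to the threshold. *RPS2*, for another protein of the entry channel, had -0.83, -0.19, -0.64 and -0.45 in *ptc1 ptc6*, and -0.60, -0.01, 0.15 and 0.45 in *ptc6*. Its ratio of -0.53 ± 0.16 did not pass (limma, adjusted p = 0.0709). *RPS20*, for a protein of the head, had -0.92, -0.54, -0.11 and -0.69 in *ptc1 ptc6*, and -0.48, -0.21, 0.32 and 0.20 in *ptc6*, and it did not pass either (-0.57 ± 0.17, SE, n = 2, limma adjusted p = 0.0721).

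The median of the 8 single-copy genes in *ptc1 ptc6* was -0.56, and that of the 41 tested A and B genes was -0.725, of which 36 fell. Of the single-copy genes, 3 have repeated values, *RPS20* and *RPS31* among them. Without genes that have such values, the medians were -0.56 over 5 single-copy genes and -0.75 over 36 A and B genes. Head and body genes had medians of -0.74 and -0.70, and 14 of 18 and 26 of 31 of them fell. In *ptc6* the medians were 0.00 over single-copy genes, 0.01 over A and B genes, 0.015 over head genes and 0.00 over body genes.

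Most of the remaining A and B genes that fell lay close together. *RPS10A*, *RPS21A*, *RPS11B* and *RPS26A* had fitted ratios between -0.90 and -0.82 in *ptc1 ptc6*. *RPS25B*, *RPS23B*, *RPS18A*, *RPS11A*, *RPS28B*, *RPS6A*, *RPS16B*, *RPS1B*, *RPS23A*, *RPS21B*, *RPS25A*, *RPS24B* and *RPS9B* had ratios between -0.79 and -0.70. *RPS0B*, *RPS24A*, *RPS29B*, *RPS26B*, *RPS14A*, *RPS19B*, *RPS29A*, *RPS14B*, *RPS8B*, *RPS0A*, *RPS9A*, *RPS8A* and *RPS27A* had ratios between -0.69 and -0.53. The median SE of 0.14 is wider than most steps between neighbours in this order. Members with too few values for the test in *ptc1 ptc6* were *RPS1A* with -0.67 on experiment 3, *RPS10B* with -0.39 and -0.68 on experiments 1 and 2, *RPS22B* with -0.23 on experiment 2, and *RPS18B* with none.

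How alike the order of the members was between replicates can only be described, because the genes share arrays, dyes and, for paralogs, sequence. Across the 49 members with both *ptc1 ptc6* replicates, Pearson's r was 0.35, against 0.76 over 4596 ORFs, and across 51 members in *ptc6* it was 0.20, against 0.12 over 4824 ORFs. The SD of the fitted ratios was 0.17 among the members and 0.39 among all genes in *ptc1 ptc6*. Arrays of the same replicate also differed. In replicate 1, the array with the mutant in Cy3 minus that with the mutant in Cy5 had a median over members of -0.315 in *ptc1 ptc6* and of -0.30 in *ptc6*, and it was below 0 for 40 of 48 and 47 of 51 members. In replicate 2 these medians were 0.07 and -0.02. Over all ORFs in *ptc1 ptc6*, arrays of the same dye orientation in different replicates had r of 0.77 and 0.79. Dye-swapped arrays of the same replicate had 0.49 and 0.59. In *ptc6* the order was the other way, with -0.02 and 0.21 against 0.305 and 0.41. The part of dye orientation in these differences was not tested.

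A and B genes of a family were compared through the difference of their ratios on the same array. Over all pairs of symbols that differ only in a final A or B, 20.8% were called in *ptc1 ptc6* (10 of 48), and 4 of the 17 *RPS* pairs were. The *RPS* pairs were thus near the share over all pairs, and 6 of the 31 other pairs were called. In *ptc6*, 4.0% were called (2 of 50), and both calls were among the 19 *RPS* pairs. The array carries amplified ORFs, and nearly identical coding sequences may share signal, so the values of single copies are uncertain, and cross-hybridisation was not tested. The absolute difference between the copies had a median of 0.085 over the *RPS* pairs in *ptc1 ptc6* and of 0.08 in *ptc6*, with a median SE of 0.08. The SE of a pair is moderated over both mutants and all pairs, so it can be smaller than the spread of its own replicates.

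*RPS7A* was lower than *RPS7B* on all 8 arrays. *RPS7A* had -1.07, -0.77, -1.02 and -0.82 on the *ptc1 ptc6* arrays, and -0.68, -0.13, -0.105 and 0.25 on the *ptc6* arrays. The A minus B difference was -0.71, -0.54, -0.69 and -0.285 in *ptc1 ptc6*, and -0.825, -0.48, -0.37 and -0.235 in *ptc6*. It was called in both mutants, at -0.555 ± 0.09 in *ptc1 ptc6* (limma over all pairs, adjusted p = 1.7e-05) and -0.48 ± 0.09 in *ptc6* (adjusted p = 0.000623; SE, n = 2 each). The difference between the mutants was -0.08 ± 0.12 (adjusted p = 0.923).

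*RPS27A* was higher than *RPS27B* on all *ptc1 ptc6* arrays. The A minus B difference was 0.32, 0.53, 0.93 and 0.56 in *ptc1 ptc6*, and 0.30, 0.28, -0.02 and 0.27 in *ptc6*. It was called in *ptc1 ptc6*, at 0.59 ± 0.09 (limma over all pairs, adjusted p = 8.5e-06), and not in *ptc6*, at 0.21 ± 0.09 (adjusted p = 0.303; SE, n = 2 each). The call in *ptc1 ptc6* was lost when the groups were fitted alone, with the mutant in Cy3 only, and without either *ptc6* replicate (highest adjusted p = 0.0917). Between the mutants the difference was 0.38 ± 0.12 and did not pass the threshold (adjusted p = 0.0529).

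*RPS6A* minus *RPS6B* was 0.13, -0.19, -0.86 and -0.24 in *ptc1 ptc6*, so the call (-0.29 ± 0.10, limma over all pairs, adjusted p = 0.0448, SE, n = 2) leaned on experiment 3. The replicate means of this difference were -0.03 and -0.55, which lie further apart than that SE. Rps6 is a phosphoprotein downstream of TORC1, and *RPS6B* was at the shared ratio on experiment 4. With the repeated values set to missing, the *RPS7* and *RPS27* pairs were called in *ptc1 ptc6* (adjusted p = 0.0115 each), and the *RPS6* pair was not (adjusted p = 0.206).

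The second pair called in *ptc6* was *RPS28*. Rps28 protein of yeast binds the *RPS28B* mRNA and promotes its decay. *RPS28A* had -0.79, -0.515, 0.33 and 0.08 on the *ptc6* arrays, and *RPS28B* had -0.285, 0.12, 0.48 and 0.37. The A minus B difference was -0.51, -0.635, -0.15 and -0.29 in *ptc6*, and -0.08 and -0.32 on *ptc1 ptc6* experiments 2 and 3. A was lower on each of these 6 arrays, with fitted differences of -0.20 ± 0.09 in *ptc1 ptc6* (limma over all pairs, adjusted p = 0.103) and -0.40 ± 0.09 in *ptc6* (adjusted p = 0.00438; SE, n = 2 each). Both calls in *ptc6* were lost when either *ptc6* replicate was left out, when either dye orientation was used alone, and when repeated values on other pairs were set to missing, which changed the shared spread (adjusted p = 0.102 for *RPS7* and 0.189 for *RPS28*).

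**Figure D4:**
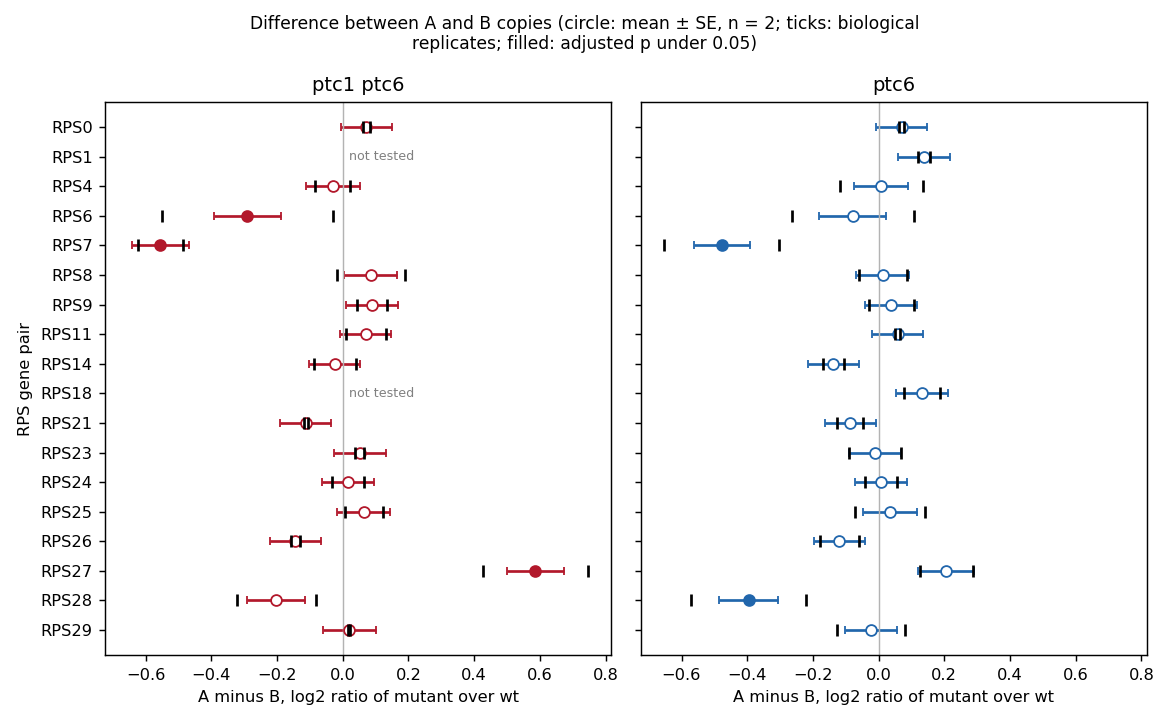
Difference between the log2 ratios of the A and the B gene (horizontal axis) for 18 RPS pairs (vertical axis) in ptc1 ptc6 (left) and ptc6 (right), as the fitted mean ± SE with n = 2, with ticks for the biological replicates. Filled circles mark an adjusted p under 0.05, which 3 of these pairs reach in ptc1 ptc6 and 2 in ptc6, with RPS7 among them in both.

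The other parts of the translation machinery were compared with the members. Of the *RPL* genes, 62 of 70 fell and 0 rose in *ptc1 ptc6*, with a median of -0.72. *ASC1*, which encodes a scaffold protein bound to the head of the 40S subunit, had -0.82, -0.39, -0.88 and -0.47 on the *ptc1 ptc6* arrays, and -0.45 and 0.13 on *ptc6* experiments 1 and 2. It fell to -0.64 ± 0.11 in *ptc1 ptc6* (SE, n = 2, limma adjusted p = 0.0292). Of 25 genes for translation initiation factors, 8 fell and 0 rose in *ptc1 ptc6*, with a median of -0.41.

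Of 31 genes for assembly factors of the 40S subunit, 3 fell and 0 rose in *ptc1 ptc6*. This share of 9.68% is near the 8.49% over all genes, and the median was -0.30. *NOP14*, for a protein of the early assembly complex, had -0.10, -1.14, 0.03 and -1.30, and was low only on the arrays with the mutant in Cy5. It fell to -0.63 ± 0.10 (SE, n = 2, limma adjusted p = 0.0270). *IMP4*, for another protein of that complex, had -0.265, -0.57, -0.55 and -0.805 and fell to -0.55 ± 0.12 (SE, n = 2, limma adjusted p = 0.0368). The highest of these genes, *NOP1* for the methyltransferase of box C/D particles and *HRR25* for a casein kinase, had ratios of 0.45 and 0.13 and did not pass.

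Of 25 genes that control transcription of ribosomal protein genes, 1 fell and 2 rose in *ptc1 ptc6*, where 5.64% of all genes rose. *YAK1*, for a kinase that acts in opposition to protein kinase A, had 0.76, 0.39, 0.705 and 0.52 in *ptc1 ptc6*, and 0.09, 0.34, -0.33 and -0.36 in *ptc6*. It was above 0 on all *ptc1 ptc6* arrays and rose to 0.59 ± 0.15 (SE, n = 2, limma adjusted p = 0.0480). *UTP22*, whose product links rRNA processing to Ifh1, fell to -0.44 ± 0.10 (SE, n = 2, limma adjusted p = 0.0400), and *SCH9*, for a kinase downstream of TORC1, had -0.35 ± 0.12 and did not pass (adjusted p = 0.0982). The co-activator gene *IFH1*, chosen after its values were seen, had 0.27, -0.63, 0.03 and -0.95 in *ptc1 ptc6*, with both low values on Cy5 arrays, and did not pass (adjusted p = 0.108). In *ptc6* no gene of any of these lists passed.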

How the data were processed

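The authors hybridised cDNA of mutant and wt cells on arrays of amplified yeast ORFs. Per the labels, spots with a diameter under 120 µm or an intensity under 150 were left out. The deposited values are log2 ratios per ORF and array, normalized by the authors. The normalization within arrays and the log base are not given in the table; base 2 was taken from the 2-fold rule of the methods, and the direction (mutant over wt) from the deleted genes. Array medians lay between -0.10 and 0.03. No columns of other samples were present, and single-channel signals were not used here.

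Dye-swapped arrays were averaged to 1 value per biological replicate. A gene entered the fit of a mutant if both replicates and a minimum of 2 of the 4 arrays had a value. The linear models of limma (version 3.58.1, with R 4.3.3) had a mean per mutant and 1 shared spread. This spread was moderated over all genes or pairs, and each SE comes from it. Tests against 0 and of the difference were two-sided with Benjamini-Hochberg adjustment over all genes tested and a threshold of 0.05. Such a test holds the variation of wt cultures only as far as replicates used separate ones, which the labels do not state. A and B genes were compared in the same way over all such pairs. The scripts were tested on simulated data. Symbols came from the RefSeq gene table by systematic name (5662 of 6212 ORFs matched). The number of arrays limits the precision.

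Named genes are the deleted genes, members past the 2-fold rule, the 6 lowest and 6 highest members in each contrast, the pairs with the largest A minus B difference (5 in *ptc1 ptc6*, 3 in *ptc6*), single-copy members, the 2 lowest and 2 highest genes of the transcription control and assembly lists, and *ASC1*. The members, gene lists and this rule were chosen with earlier results of these data known. Alternatives were random and replicate blocks, groups fitted alone, centring, 4 of 4 values, single dyes and left-out replicates, and, chosen after seeing the data, removal of repeated values, a crossed block and removal of 1 array. Some named items are not reported here.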

Additional observations from a re-analysis of the deposited data

Results flagged for a closer look

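*RPS19B* had a log2 ratio of -0.649 on *ptc6* experiment 1, far from the other *ptc6* arrays, which lay between 0.187 and 0.257. *RPS24B* had -0.438 on *ptc1 ptc6* experiment 2, whereas the other *ptc1 ptc6* arrays lay between -0.812 and -0.788. They are 2 of 98 sets of 4 arrays examined for a single distant array, and chance alone gives about 1 in 20.

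*RPS7B* was below 0 on every *ptc1 ptc6* array and above 0 on every *ptc6* array, a pattern whose share over all ORFs was not counted. The difference between the mutants was -0.676 and did not pass the threshold (limma, adjusted p = 0.0966; range over the alternatives 0.00726 to 0.27).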

How the results depend on the processing

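The number of *RPS* genes called in *ptc1 ptc6* against wt was 40 and lay between 29 and 45 under the alternatives that keep all replicates; with 1 replicate left out it lay between 6 and 42. None was called in *ptc6* under any alternative. In the difference between the mutants, where 0 were called, 39 were called with a random block on 8 arrays, 27 with 4 of 4 values, 1 with the mutant in Cy5 only, and between 0 and 5 with a replicate left out. With the replicate number as a block (replicate block), 45, 0 and 21 members were called in *ptc1 ptc6*, *ptc6* and the difference. The labels do not say that the numbers pair the samples, and the deviations of same-numbered replicates had a correlation of -0.209 over 4360 genes and of 0.127 over 49 members; with the numbers crossed, 44, 0 and 33 were called. The median in *ptc1 ptc6* was -0.785 with the mutant in Cy3 only and -0.623 with the mutant in Cy5 only. By the 2-fold rule, 2 members in *ptc1 ptc6* became 1 after centring, 0 when each replicate had to pass, 6 in Cy3 only, 1 in Cy5 only, and between 1 and 4 with a replicate left out. Of *RPS* pairs, the 4 called in *ptc1 ptc6* became 1 when groups were fitted alone, 1 in Cy3 only, 2 in Cy5 only, 2 with repeated values removed, 2 without the array of experiment 3, and between 1 and 4 with a replicate left out; the 2 called in *ptc6* became 0 in Cy3 only, in Cy5 only, with repeated values removed and without that array, and between 0 and 2 with a replicate left out. The *RPS7* pair was called in *ptc1 ptc6* under each alternative run. The causes were not tested. Among single named genes, 0 called values changed sign, 44 were lost and 106 were gained over the alternatives, and 53 uncalled values in *ptc6* and 3 in the difference changed sign. With n = 2, a missed threshold does not show that values were equal.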
